A study of Mus musculus with 82 samples.

Results

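Of the 1994 HP1γ peaks that the deposited list places on chromosomes 1 to 19, 603 (30.2%) had another peak of the list within 10 kb, measured between facing edges. Joined to their neighbours, these 603 peaks formed 229 runs. The remaining 1391 peaks, called isolated here, had no other peak of this list within 10 kb. The members were chosen by the distances between peak positions, so the size and spacing of the runs are given as a description, with no test. The whole list holds 2047 peaks; 53 of them lie on chromosomes X and Y or on scaffolds and were not used here.

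HP1γ, encoded by Cbx3, is 1 of the 3 mammalian HP1 proteins, which bind methylated lysine 9 of histone H3 through a chromodomain and are known from silenced, compact chromatin. HP1 proteins also join other complexes through a second domain, among them ChAHP, in which the zinc finger and homeodomain protein Adnp carries HP1 and the remodeller Chd4 to its own DNA motif. A chromatin domain can hold HP1 over several kilobases, and a peak caller may list such a stretch as neighbouring peaks.

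The series examined mouse embryonic stem cells of a hybrid 129-C57BL/6 background, grown in 2i medium with LIF, with 82 samples in 32 groups. The HP1γ list is tied by the series description to HP1γ ChIP-seq from Adnp knock-out cells (Cbx3 FlagAvi, Adnp KO; 3 replicates) and from wild-type cells (Cbx3 FlagAvi; 3 replicates), none treated, and its name says that its peaks lack the Adnp motif, which was not checked here. The Adnp list is tied to ChIP-seq of Adnp in untreated wild-type cells (Adnp FlagAvi; 3 replicates). All these groups carry the FlagAvi tag, through which the tagged protein was captured on streptavidin beads, and the labels give no clone number for them. Each list is pooled over its samples, so replicate error is unknown for every value and HP1γ in knock-out and wild-type cells cannot be told apart here. The peak names point to the knock-out cells. Neither list gives read counts, so the sequencing depth is unknown, and the intervals below cover counting error only. Positions are on mm10 (GRCm38).

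Few peaks in runs lay on a promoter window, meaning the 250 bases before and the first 50 bases of an annotated transcript start. There were 13 of 603 peaks in runs (2.16%) and 83 of 1391 isolated peaks (5.97%) on such a window, with 4.81% of all 1994 peaks. This difference was not tested. The 603 peaks belong to 229 runs and were counted separately, though the peaks of a run are not independent. A run can touch a window while most of its peaks lie off it, which lowers the share per peak. The shares per peak therefore cannot tell whether runs touched promoter windows less often than isolated peaks did, and no depletion is read from them. Sequences are printed for 6 of the 16 windows that run peaks touched, and these 6 do not stand for the rest. Those of 4 genes with the most bases under run peaks are printed from RefSeq (GRCm38.p6), 5′ to 3′ on the strand of the gene, with the bases under an HP1γ peak in capitals. Airn and Atf7ip were added after their values were seen, since Airn is the RNA of an imprinting centre and Atf7ip belongs to the listed heterochromatin genes.
Atxn1l, chr8:109737731-109738030, minus strand: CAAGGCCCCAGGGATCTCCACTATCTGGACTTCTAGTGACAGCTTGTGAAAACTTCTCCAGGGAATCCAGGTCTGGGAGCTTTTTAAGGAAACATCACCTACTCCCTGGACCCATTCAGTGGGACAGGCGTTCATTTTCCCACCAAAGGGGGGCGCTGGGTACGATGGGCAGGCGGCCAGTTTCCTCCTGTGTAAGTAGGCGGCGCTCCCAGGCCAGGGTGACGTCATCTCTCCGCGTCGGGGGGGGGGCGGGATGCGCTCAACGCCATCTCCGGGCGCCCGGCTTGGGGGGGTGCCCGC
Zfp518a, chr19:40894455-40894754, plus strand: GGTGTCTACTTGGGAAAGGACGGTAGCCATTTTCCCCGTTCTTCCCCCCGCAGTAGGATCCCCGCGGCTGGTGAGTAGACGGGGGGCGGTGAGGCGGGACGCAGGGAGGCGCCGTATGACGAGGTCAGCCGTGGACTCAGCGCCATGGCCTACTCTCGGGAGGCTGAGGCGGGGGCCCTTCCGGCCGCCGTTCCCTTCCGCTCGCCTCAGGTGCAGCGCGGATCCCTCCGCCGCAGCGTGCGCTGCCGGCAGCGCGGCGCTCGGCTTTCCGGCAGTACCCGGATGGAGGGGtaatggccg
Cops7a, chr6:124965217-124965516, minus strand: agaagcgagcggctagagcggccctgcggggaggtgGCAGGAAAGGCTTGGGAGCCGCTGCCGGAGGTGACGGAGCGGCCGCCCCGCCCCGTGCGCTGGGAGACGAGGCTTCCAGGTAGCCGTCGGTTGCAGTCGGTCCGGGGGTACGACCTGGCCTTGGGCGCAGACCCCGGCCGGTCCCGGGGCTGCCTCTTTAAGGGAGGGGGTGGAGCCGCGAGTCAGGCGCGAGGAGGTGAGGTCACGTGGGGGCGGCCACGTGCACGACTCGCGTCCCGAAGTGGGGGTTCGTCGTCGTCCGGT
Gm8493, chr5:109553498-109553797, minus strand: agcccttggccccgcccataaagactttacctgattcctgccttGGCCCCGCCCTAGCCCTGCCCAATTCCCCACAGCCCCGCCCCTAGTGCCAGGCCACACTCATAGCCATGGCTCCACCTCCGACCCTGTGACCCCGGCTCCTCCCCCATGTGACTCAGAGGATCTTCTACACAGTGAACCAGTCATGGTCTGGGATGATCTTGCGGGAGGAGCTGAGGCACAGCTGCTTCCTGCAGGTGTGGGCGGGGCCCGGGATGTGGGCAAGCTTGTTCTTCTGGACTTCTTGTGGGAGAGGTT
Airn, chr17:12741061-12741360, plus strand: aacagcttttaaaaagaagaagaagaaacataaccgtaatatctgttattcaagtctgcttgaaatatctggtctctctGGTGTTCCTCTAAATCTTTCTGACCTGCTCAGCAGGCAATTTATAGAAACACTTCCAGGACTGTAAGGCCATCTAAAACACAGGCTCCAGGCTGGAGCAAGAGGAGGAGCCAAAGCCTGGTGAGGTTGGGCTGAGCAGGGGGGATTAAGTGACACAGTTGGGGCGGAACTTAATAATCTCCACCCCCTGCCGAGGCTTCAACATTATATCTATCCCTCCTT
Atf7ip, chr6:136518601-136518900, plus strand: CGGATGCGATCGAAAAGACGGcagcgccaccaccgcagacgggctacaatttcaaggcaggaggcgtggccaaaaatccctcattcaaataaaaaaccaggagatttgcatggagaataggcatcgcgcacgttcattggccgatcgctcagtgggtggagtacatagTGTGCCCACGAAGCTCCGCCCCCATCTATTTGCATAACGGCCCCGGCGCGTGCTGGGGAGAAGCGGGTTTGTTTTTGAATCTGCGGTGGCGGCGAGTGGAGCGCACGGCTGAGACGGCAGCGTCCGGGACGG

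The 6 printed windows were rich in C and G with the exception of Airn. Over all 16 windows on run peaks, the median share of C and G was 59.2%, from 42.0% in Gm40904 to 76.0% in a window of Tmem267. The share of C and G was 72.7% in Cops7a, 70.3% in Zfp518a, 62.3% in Atxn1l, 61.7% in Gm8493, 58.7% in Atf7ip and 45.7% in Airn, against a median of 53.0% over 31365 promoter windows on the same chromosomes. CpG dinucleotides numbered 37 in Cops7a, 35 in Zfp518a, 29 in Atf7ip, 17 in Atxn1l, 8 in Gm8493 and 3 in Airn, against a median of 7 over all windows. The GC box GGGCGG, searched on both strands, occurred in each of the 6 windows, with 4 matches in Gm8493 and 3 in Cops7a, and in 36.0% of all windows. The E-box CACGTG had 2 matches in Cops7a, none in the other 5 windows, and at least 1 match in 7.14% of all windows. TGCCGC, the word bound by the imprinting factor Zfp57 when methylated, occurred in none of the 6 and in 11.6% of all windows.

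Most runs were small. Pairs made up 153 of the 229 runs and held 306 peaks. There were 42 runs of 3 peaks, 17 of 4, 10 of 5, 1 of 6, 5 of 7 and 1 of 12, so 76 runs had 3 or more peaks and 17 had 5 or more. From the lowest to the highest base, a run spanned 2020 bp at the median (quartiles 1081 and 5192 bp; 489 to 22273 bp). Pairs spanned 1551 bp at the median and runs of 3 or more 4038 bp. Together the runs spanned 834 kb, of which HP1γ peaks covered 253 kb. The peaks of a run covered 51.7% of its span at the median, and the extremes were 4.40% and 95.1%.

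Neighbours within a run lay close together, far inside the distance that defined it. The 374 gaps had a median of 452 bp (quartiles 152 and 1503 bp). Of them, 57 were at most 100 bp and 245 (65.5%) at most 1000 bp, while 42 (11.2%) were over 5 kb. The smallest gap was 53 bp. Gaps had a median of 551 bp in pairs and 364 bp in runs of 3 or more. The last gap counted as joined was 9904 bp and the first not joined was 10034 bp; 7 gaps fell in the last 1 kb below the limit and 8 in the first 1 kb above it. Neighbours that did not share a run were 708 kb apart at the median.

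**Figure D1:**
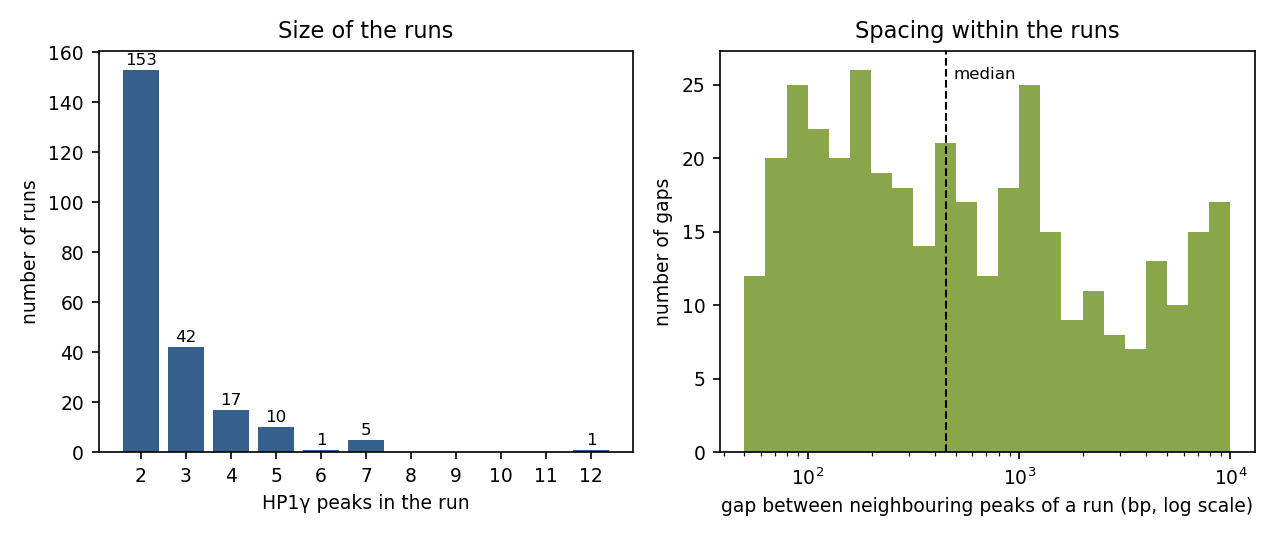
Left, number of runs (y axis) by the HP1γ peaks they hold (x axis), with 153 pairs at one end and 1 run of 12 peaks at the other. Right, number of gaps (y axis) by gap length in bp on a log axis, with a dashed line at the median of 452 bp and 245 of 374 gaps at or below 1000 bp.

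The peak names are numbered along each chromosome, and of the numbers up to 2701 the whole list lacks 654, for a reason the sources used here do not give. Within runs, 362 of 374 neighbouring pairs had consecutive numbers, and 12 pairs (3.21%) in 10 runs skipped a number. The skipping gaps ran from 1013 to 8466 bp. Between neighbours that did not share a run, 424 of 1601 pairs (26.5%) skipped a number. Those neighbours also lay much farther apart. If the lacking numbers stand for peaks that were left out, an isolated peak may have had a near neighbour that is not listed. Run size and isolation therefore hold for this list alone.

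Peaks in runs and isolated peaks had like typical widths, with medians of 300 bp in runs and 306 bp in isolated peaks, but the widest peaks of the list were more frequent in runs. The upper quartile was 483 bp in runs and 437 bp in isolated peaks. Peaks of at least 1000 bp numbered 32 of 603 (5.31%) in runs and 18 of 1391 (1.29%) among isolated peaks. That limit was chosen after the values were seen, and the difference was not tested. In runs of 3 or more, the 145 inner peaks had a median width of 335 bp and the 152 outer ones 293 bp.

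The run with most peaks lay at the far end of Tmem267, a gene of a transmembrane protein (gene ID 633640, chromosome 13, 119488086 to 119610459, plus strand). It held 12 peaks of 201 to 638 bp between 119596697 and 119617512. The first 6 lay inside the gene and the other 6 beyond its end, and the nearest peaks on either side of that end lay at 119609741 to 119609970 and at 119610678 to 119610918. A second run, a pair at 119488042 to 119489235, covered the start of the same gene. No Adnp peak overlapped either run.

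The longest run reached from 124951635 to 124973907 on chromosome 6 (22273 bp) over the far end of Cops7a, a subunit gene of the COP9 signalosome (124958445 to 124997903, minus strand). Its 7 peaks fell into a group of 5 beyond the gene within 124951635 to 124955441, 1 at 124965161 to 124965480 on an annotated start of Cops7a, whose window is printed above, and 1 at 124973637 to 124973907. Of 3 Adnp peaks in the run, 2 overlapped HP1γ peaks and had authors' scores of 31.2 and 7.39, and the third, with a score of 57.2, lay between HP1γ peaks. The score is the authors' value per Adnp peak, its kind is not stated, and it serves here to describe peaks within that list.

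Densely covered runs differed from such sparse ones. On chromosome 9, a run of 7 peaks between 123924356 and 123937420 was covered to 67.5% and held the widest peak of any run, 2888 bp. It overlapped the short lncRNA gene Gm51701 (123925148 to 123928706), which 2 of its peaks touched, and the widest peak lay outside the gene. The run of 5 inside Trim24, the gene of a chromatin-reading cofactor on chromosome 6, was covered to 75.7% (37872494 to 37878152), its first peak being 2302 bp wide. A run of 5 narrow peaks between genes on chromosome 1 (36041792 to 36043864), with gaps of 56 to 307 bp, had 1555 of its 2073 bp under peaks. By contrast, the run of 5 in Xkr6, the gene of a membrane protein of the XK family on chromosome 14, was covered to 13.7%, and that in Zyg11b, the gene of a ubiquitin ligase receptor on chromosome 4, to 16.9%.

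**Figure D2:**
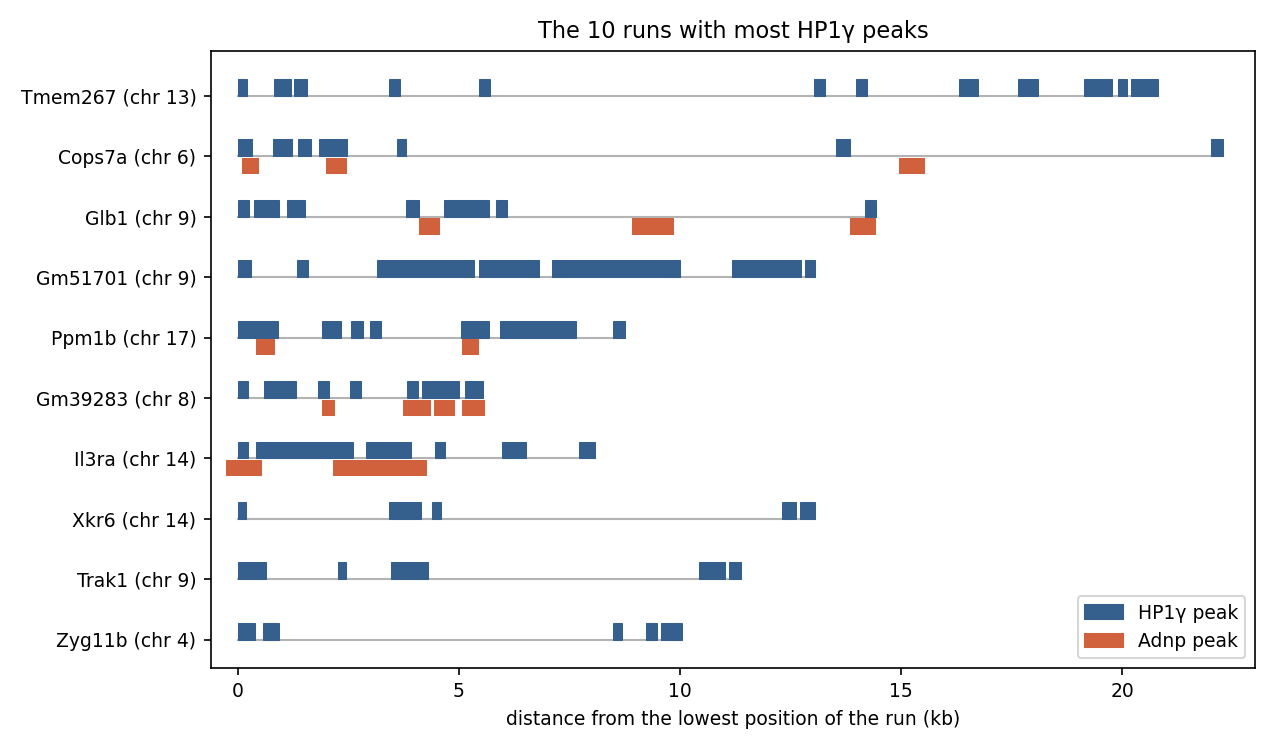
The 10 runs with most HP1γ peaks, each named by a gene it overlaps, with blue bars for HP1γ peaks and orange bars for Adnp peaks along the distance from the lowest position of the run in kb (x axis). Adnp peaks lie in the runs at Cops7a, Glb1, Ppm1b, Gm39283 and Il3ra, and none lies in the other 5.

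Protein-coding genes with most run peaks inside were Tmem267 with 8, then Glb1, the gene of lysosomal beta-galactosidase, and Ppm1b, a protein phosphatase gene, with 7 each. Cep57l1, Ezr, Il3ra, Trak1, Trim24, Xkr6 and Zyg11b held 5 each. Ezr encodes ezrin, which links actin to the cell membrane, Il3ra a chain of the interleukin 3 receptor, and Trak1 an adaptor of mitochondrial transport. In 6 of the 7 of these genes for which it could be placed, the run lay towards the start. Xkr6 was not placed because its strand was not available. Tmem267 and Il3ra were not placed because their runs crossed a gene end. The larger run at Tmem267 and the run at Il3ra crossed the far end. Counted from the start of the gene, the middle of the run lay at 4.62% of the gene's length in Trim24, 10.7% in Cep57l1, 14.7% in Trak1, 18% in Zyg11b, 24.2% in Glb1, 28.1% in Ppm1b and 87.1% in Ezr. Of 55 pairs of a run and a protein-coding gene that contains it and whose strand is known, 18 lay in the first part of the gene when it is cut into 3 equal parts, 16 in the middle part and 21 in the last.

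Genes were overlapped by 124 of the 229 runs (54.1%, 95% Wilson interval 47.7% to 60.5%). Protein-coding genes were overlapped by 88 runs, lncRNA genes by 35, of which 26 touched no protein-coding gene, and pseudogenes by 10. The runs covered 137 of 46714 annotated genes of any type (0.293%), 87 of 20560 protein-coding genes (0.423%), 36 of 12324 lncRNA genes (0.292%) and 10 of 9402 pseudogenes of every annotated kind (0.106%). The overlapped protein-coding genes were long, with a median of 67.3 kb against 17.6 kb for all of them; the part of gene length in being overlapped was not tested. Of the 88 runs at protein-coding genes, 77 lay wholly inside one and 11 crossed an end. The ends crossed included the annotated starts of Atf7ip, Atxn1l, Prpf39 and Tmem267 and the far ends of Cops7a, Il3ra, Crlf2, Mios and Tmem267. The strand comes from the promoter table, and exons and introns were not distinguished.

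No gene was overlapped by 105 runs. Of these, 35 had a protein-coding gene within 10 kb and 17 had none within 100 kb; the median distance was 20.3 kb. A run of 5 on chromosome 6 (65017078 to 65019848) lay 22.7 kb from Smarcad1, the gene of a chromatin remodeller, and 3 of its 5 peaks overlapped 2 Adnp peaks. The most remote was a pair on chromosome 10 (38030963 to 38036495), 784 kb from Rfpl4b. One run of 4 (53573915 to 53576127 on chromosome 14) lay inside the T cell receptor alpha locus Tcra.

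Zinc finger genes, which include many repressors of transposable elements, were overlapped by runs in 7 of 416 cases (1.68%), against the 0.423% of all protein-coding genes. They were Zfp445, Zfp758, Zfp11, Zfp27, Zfp518a, Zfp629 and Zfp982. Zfp445, which helps to keep imprints, held 3 run peaks between 122857552 and 122861259 on chromosome 9, the widest of 1723 bp, and that peak overlapped an Adnp peak. The runs were spread along these genes. The middle of the run lay at 2.91% of the gene's length in Zfp518a, 16.1% in Zfp758, 35.5% in Zfp982, 46.2% in Zfp629, 72.3% in Zfp445, 79.6% in Zfp11 and 86.6% in Zfp27. The run in Zfp518a also covered the microRNA gene Mir8092. The lists were compared by counts alone.

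Of 44 imprinted genes, where 1 parental allele is silent, 3 were overlapped (6.82%), against 0.293% of all genes. They were Airn, Igf2r and Peg10, and the same run overlapped both Airn and Igf2r. Within 5 kb of a run lay 5 of the 44 genes (11.4%), where 0.428% of all genes did. These 5 genes stood at 3 runs, each a pair without an Adnp peak. The pair at Airn, the antisense RNA gene that lies partly within Igf2r on chromosome 17, had peaks of 300 bp (12741140 to 12741439) and 787 bp (12742062 to 12742848), the first across the start of Airn. The pair in Peg10, a retrotransposon-derived gene on chromosome 6 next to Sgce, had peaks of 210 and 301 bp between 4747568 and 4748175. The pair near Igf2, the gene of a fetal growth factor on chromosome 7, lay 2848 bp outside the gene, at 142669664 to 142670650, with peaks of 584 and 252 bp. That pair crossed the upper end of the lncRNA gene Igf2os (142659680 to 142670356).

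Of 18 heterochromatin and ChAHP genes, Atf7ip alone was overlapped (5.56%). Atf7ip encodes a partner of the H3K9 methyltransferase Setdb1. Its run of 3 on chromosome 6 had a first peak of 364 bp before the gene, inside the lncRNA gene Gm44140. The second, of 705 bp (136518769 to 136519473), lay over the start of Atf7ip and on an Adnp peak with a score of 27.6. The last, of 412 bp, lay inside Atf7ip. Another Adnp peak (136525904 to 136526292, score 17.9) lay in the gap before that last HP1γ peak. No run overlapped any of 1103 olfactory receptor, 349 vomeronasal receptor, 386 tRNA, 83 ribosomal protein, 75 histone, 57 clustered protocadherin, 39 Hox, 23 pluripotency or 23 germline genes. At the 0.293% of all genes, a list of under 100 genes corresponds to less than 1 gene, so a count of 0 in the short lists was not informative. The vomeronasal receptor and tRNA lists correspond to hardly more than 1 gene each, so their counts of 0 were not informative either. The count of 0 among olfactory receptor genes was not tested, and no depletion is read from it. Gene length was not taken into account in any list, and the protein-coding genes that runs overlapped were long (median 67.3 kb).

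Some runs had other runs nearby. Within 100 kb of each other lay 33 runs in 15 groups, with 89 peaks. The largest group had 4 runs and 14 peaks over 191 kb of chromosome 6 (37687160 to 37878152), ending in Trim24, with 4 Adnp peaks in its runs. A group of 3 runs lay near the low end of chromosome 18 (3005579 to 3119178). The run that crossed the upper end of the lncRNA gene Gm36897 and the run at Atf7ip formed a group of 59.0 kb on chromosome 6.

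The share of HP1γ peaks that lay in runs varied between chromosomes. It was 42.7% on chromosome 13 (38 of 89; 95% Wilson interval 32.9% to 53.1%), 42.1% on chromosome 6 (82 of 195; 35.3% to 49.1%) and 40.5% on chromosome 14 (64 of 158; 33.2% to 48.3%). It was lowest on chromosome 7, at 14.6% (15 of 103; 9.03% to 22.6%), and on chromosome 3, at 17.3% (14 of 81; 10.6% to 26.9%). Chromosome 6 had 30 runs, or 20.5 per 100 Mb, and chromosome 7 had 6, or 4.22 per 100 Mb. The Adnp list had 745 peaks on chromosome 6 and 953 on chromosome 7. Peaks of a run share their place, so the intervals are too narrow, and the differences between chromosomes were not tested.

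**Figure D3:**
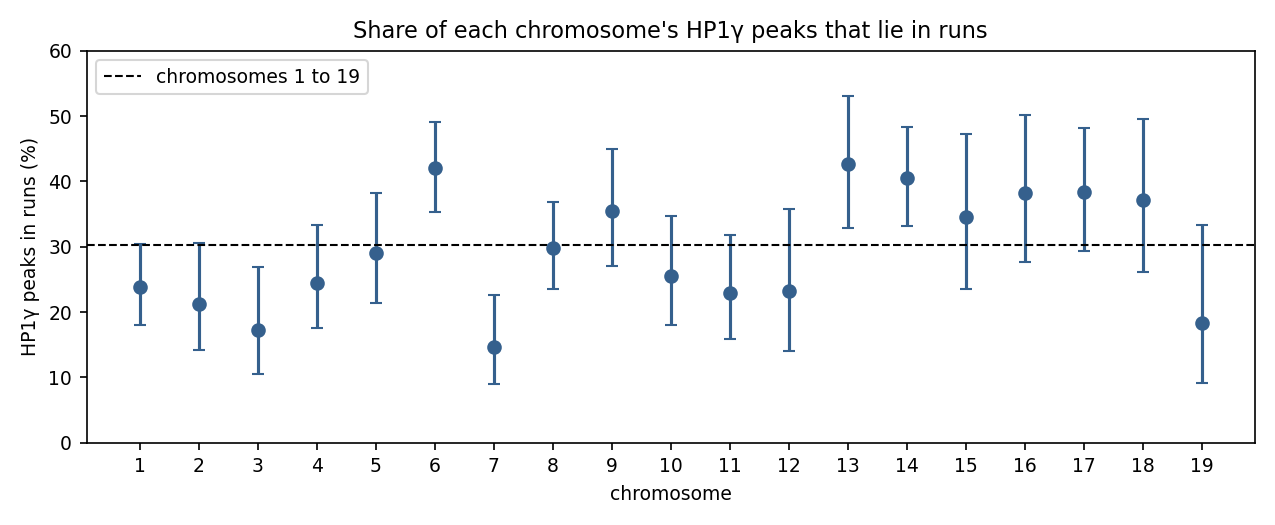
Share of HP1γ peaks that lie in runs in percent (y axis) for chromosomes 1 to 19 (x axis), as points with 95% Wilson intervals, and a dashed line at 30.2% for all of them. Chromosomes 6, 13 and 14 lie above 40%, and chromosome 7 lies lowest at 14.6%.

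Adnp peaks lay in 60 of the 229 runs (26.2%, 95% Wilson interval 20.9% to 32.3%). The Adnp list is from wild-type cells, and the HP1γ peak names point to Adnp knock-out cells. An overlap is thus one of positions and does not show both proteins in the same cells. By its name the HP1γ list holds peaks without the Adnp motif, so the Adnp shares given here hold for this list and not for HP1γ peaks in general. There were 47 runs with 1 Adnp peak, 9 with 2, 2 with 3 and 2 with 4. Of the 79 Adnp peaks in runs, 68 (86.1%) overlapped an HP1γ peak and 11 lay in gaps between HP1γ peaks. Each run begins and ends with an HP1γ peak, and an overlap of 1 bp counts. No expected share was computed, so this split shows no preference of Adnp for the peaks. The share of runs with an Adnp peak was 21.6% in pairs, 33.9% in runs of 3 or 4 and 41.2% in runs of 5 or more (7 of 17), and longer runs also span more bases. Per peak, the shares on an Adnp peak were 13.4%, 10.8% and 16.5% in the same order. The share was 15.2% over all 1994 HP1γ peaks and 16.1% over the isolated ones. Of the 153 pairs, 23 had 1 peak on Adnp and 9 had both, and 13 Adnp peaks each touched more than 1 peak of a run.

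On chromosome 8, a run of 7 (125693644 to 125699198) that reached past an end of the lncRNA gene Gm39283 held 4 Adnp peaks, all on HP1γ peaks, with scores of 11.4, 10.5, 40.2 and 43.1. In Glb1, 3 Adnp peaks with scores of 16.3, 40.0 and 63.5 fell in the run of 7 (114411596 to 114426030), and only the third overlapped an HP1γ peak. Both Adnp peaks in the run at Il3ra (scores 22.1 and 23.5) reached across the gap between 2 neighbouring HP1γ peaks of its run of 6 (14347894 to 14355981). In Ppm1b, 2 of the 7 peaks (84971237 to 84979990) overlapped an Adnp peak each, both with a score of 14.3. On chromosome 10, 20.3 kb from Ric8b, a run of 3 (85038683 to 85049099) had 2 peaks on Adnp peaks with scores of 22.4 and 17.4. Next to Rnf216, a ubiquitin ligase gene on chromosome 5, a sparse run of 3 (143113128 to 143129452) held 4 Adnp peaks, 2 on HP1γ peaks and 2 in the gaps. The scores of the 79 Adnp peaks in runs had a median of 18.9 (quartiles 13.3 and 29.6), and those of the whole Adnp list a median of 21.2 (13.9 and 33.6). The 169 runs without an Adnp peak lay 32.2 kb from the nearest one at the median, and 40 of them had one within 10 kb.

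Runs and isolated peaks were compared on measures other than the distances between HP1γ peaks. Each run was represented by its peak with the lowest position, since the peaks of a run are not independent. An Adnp peak lay within 10 kb of 97 of 229 run peaks (42.4%, 36.1% to 48.8%) and of 443 of 1391 isolated peaks (31.8%, 29.5% to 34.3%), against 35.7% of all 1994 peaks. This was the only one of 6 measures that passed (odds ratio 1.57; adjusted p = 0.0145 by Fisher's exact test, two-sided, corrected over the 6 measures after Benjamini and Hochberg). It is not independent of the joining rule, which used the same 10 kb. Every run peak has another HP1γ peak in that window, and no isolated peak has one. An Adnp peak on that neighbour counts for the run peak. The test therefore cannot tell a difference in Adnp from this effect of the rule. The call did not hold under 2 of 3 settings chosen after the data were seen. With Adnp peaks on no HP1γ peak the shares were 27.9% for run peaks and 22.4% for isolated peaks (odds ratio 1.34, adjusted p = 0.405 in the same exact test), and an Adnp peak lay within 5 kb of 34.1% of run peaks and 25.6% of isolated peaks (odds ratio 1.50, adjusted p = 0.0589). Over the alternatives with 1 peak per run the adjusted p of this exact test ran from 6.24e-06, with Adnp peaks within 20 kb, to 0.405.

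The other 5 measures did not pass in the same exact test. Direct overlap with an Adnp peak was found for 31 of 229 run peaks (13.5%, 9.70% to 18.6%) and 224 of 1391 isolated peaks (16.1%, 14.3% to 18.1%), with 15.2% of all peaks (odds ratio 0.816, adjusted p = 0.454, exact test). Within 1 kb of a gene end lay 17.9% of run peaks and 14.7% of isolated peaks, with 14.9% of all peaks (odds ratio 1.27, adjusted p = 0.454, exact test). Inside genes away from their ends lay 37.1% of run peaks and 36.6% of isolated peaks, with 37.7% of all peaks (odds ratio 1.02, adjusted p = 0.883, exact test). Between genes lay 45.0% of run peaks and 48.7% of isolated peaks, with 47.4% of all peaks (odds ratio 0.860, adjusted p = 0.454, exact test). Wider than the list median of 305 bp were 45.0% of run peaks and 50.3% of isolated peaks, with 49.7% of all peaks (odds ratio 0.807, adjusted p = 0.405, exact test). A p above the threshold does not show that run and isolated peaks were alike. The directions for gene ends and for the space between genes turned when the highest peak stood for each run (odds ratios 0.844 and 1.01) or protein-coding genes alone were used (0.607 and 1.17).

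**Figure D4:**
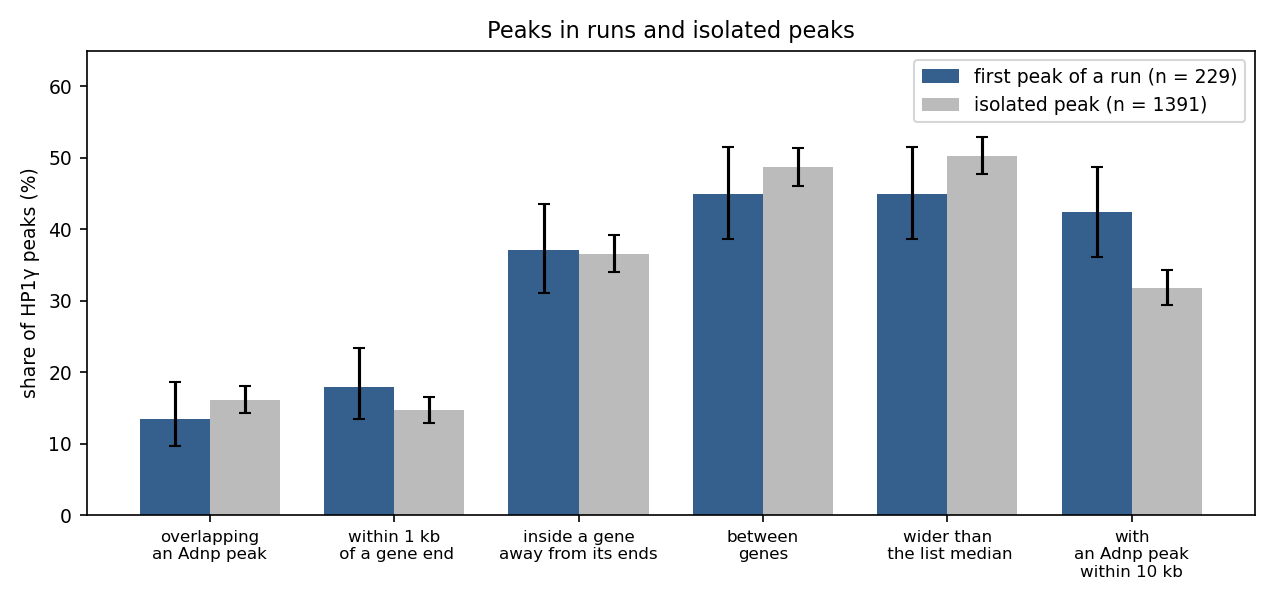
Share of HP1γ peaks in percent (y axis) that meet each of 6 measures (x axis), for the first peak of each of 229 runs (blue) and 1391 isolated peaks (grey), with 95% Wilson intervals. The intervals overlap for the first 5 measures and do not overlap for an Adnp peak within 10 kb.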

How the data were processed

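Both files are peak lists without header lines. The submitters' processing notes name bcl2fastq 1.17, Bowtie 1.0.0, STAR 2.5.0a and MACS2 together with the build mm10 (GRCm38), without saying which step made the peak lists; how peaks were called and filtered is not stated there. Each list belongs to several replicates, per the series description. The deposited score per Adnp peak is of a kind not stated, and the deposited score of every HP1γ peak is 0 and was not used.

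Peaks of the HP1γ list on chromosomes 1 to 19 were joined where at most 10 kb lay between facing edges. Genes came from a RefSeq table of GRCm38.p6 (46714 genes on these chromosomes starting at 3 Mb or later), without exons; promoter sequences came from RefSeq, same assembly. Gene ends are either end of a gene, with a window of 1 kb. An overlap is at least 1 bp. Run and isolated peaks were compared with 1 peak per run by Fisher's exact test (two-sided), corrected over 6 measures after Benjamini and Hochberg, at a threshold of 0.05. Runs and genes were named by a rule: the 10 runs with most HP1γ peaks, the 10 with most Adnp peaks, the 5 longest, the 10 protein-coding genes with most run peaks inside and up to 4 members of each gene list; other names in the text were chosen after their values were seen. The members and gene lists were chosen with earlier results of these data known. The joining and the test were tested on simulated data. Alternatives were gaps of 5 and 20 kb, distances between centres, another peak or every peak of the run, runs of 3 or more, stricter overlap, higher-scoring Adnp peaks, other gene end windows and protein-coding genes alone. Tests ran in SciPy 1.17.1 under Python 3.11.15, tables in pandas 2.3.3 and NumPy 2.4.6, and plots in matplotlib 3.10.9.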

Additional observations from a re-analysis of the deposited data

How the results depend on the processing

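The number of runs changed little: there were 546 peaks in 214 runs with gaps up to 5 kb, 670 in 249 with gaps up to 20 kb, and 600 in 229 with distances between centres. The share of runs overlapping a gene was 38.4% with protein-coding genes alone, and the share with an Adnp peak was 12.2% with the higher-scoring Adnp peaks. In the comparison of run peaks with isolated peaks, the odds ratio for an Adnp peak within 10 kb stayed above 1 and passed with other gaps, other choices of run peak and runs of 3 or more (1.49 to 2.38). In all these settings a run peak has another HP1γ peak nearby by the rule itself, which can raise this odds ratio. Among these, the setting that counts every peak (1.71) treats the peaks of a run as independent, which they are not. It lost the call with a distance of 5 kb (1.50) and with Adnp peaks on no HP1γ peak (1.34), and kept it at 20 kb (2.03); these 3 settings were chosen after seeing the data. Directions turned for gene ends with the highest peak of each run (0.844) and with protein-coding genes alone (0.607), for the space between genes in the same settings (1.01 and 1.17), and for the inside of genes with gene ends of 500 bp (0.990) and 5 kb (0.864). None of these passed in either direction, and the cause was not tested. No paired analysis was possible because both lists are pooled over replicates, and for the same reason no replicate could be left out. The number of peaks limits the precision of every share.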
